A study of Mus musculus with 2 samples.

Results

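The genes described are 10 adipokines, the hormones and secreted factors of fat tissue: Lep, Adipoq, Retn, Retnla, Cfd, Nampt, Apln, Rarres2, Metrnl and Itln1. They were taken by symbol, and each probe set (a group of short probes read as 1 value) whose only gene symbol in the platform annotation was one of these names was used. This gave 15 probe sets for 9 of the 10 genes, out of 18193 genes that the arrays name, and Cfd, which encodes adipsin, was not analysed here. The samples were adipose tissue RNA of C57BL/6 mice, an inbred strain, on 2 Affymetrix arrays. The first array held RNA from mice given the high fat diet HFD32 between 6 and 18 weeks of age, and the second held RNA from mice kept over the same weeks on the normal diet CE-2. Each array carried a pool of 3 animals, called the high fat pool and the normal diet pool here, so no value exists for a single mouse. The labels do not name the fat depot or the sex of the animals.

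Adipokines carry information from fat to other organs. Leptin reports the size of fat stores to the brain and restrains feeding, adiponectin makes liver and muscle more sensitive to insulin, and in mice resistin opposes insulin. Leptin transcription is known to increase in enlarged fat cells, while circulating adiponectin is known to be lower in obesity.

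With 1 array per diet there was no replicate, so the diets could not be tested against each other and no p-value is given. Values are log2 signals, differences are high fat diet minus normal diet, and a difference of 1 means a signal 2-fold as high. The number of arrays limits the precision. The only error that could be measured was the spread between probe sets of 1 gene, an SD of 0.27 over 5131 genes and of 0.089 over the 88 genes with several probe sets at a level of 12 or more. It covers the probes alone, not animals or dissection. In bulk tissue, fewer cells of a type and less RNA per cell cannot be told apart.

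Both pools carried fat cell transcripts: the 11 measured adipocyte markers had log2 signals from 9.49 to 14.21 in the high fat pool and from 10.23 to 14.24 in the normal diet pool. Adipoq is itself 1 of these 11 markers, and the brightest of the others share the upper end of the scale with it. Over the 11 markers the median difference was -0.047, with 1 higher and 10 lower in the high fat pool. With the median of each array subtracted, 6 were higher and 5 lower. The glucose transporter gene Slc2a4 (-0.74) and the fat cell regulators Pparg (-0.47) and Cebpa (-0.46) had the lowest differences, and Cidec (0.25) had the highest. The pools also differed in transcripts of other tissues. The median difference was -5.61 over 12 hepatocyte markers, -3.21 over 5 pancreas markers, -1.97 over 7 skeletal muscle markers (-1.002 with the median over all probe sets of each gene) and -0.89 over 9 mesothelium markers. Over 12 macrophage markers it was 1.24. The 5 epididymis markers were higher in the high fat pool, from 4.03 for Gpx5 to 5.11 for Lcn8, and the 3 testis markers were lower, with Tnp1 at -3.08, Prm1 at -1.91 and Prm2 at -1.64. These values stand beside the adipokine results below wherever such cells are known to make the transcript, and their part in those results was not tested.

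The DNA just before the start of a gene is where transcription factors meet the polymerase. It is shown for Lep and Metrnl, the genes of the set that were past 2-fold on the arrays, and for Adipoq, which sat at the top of the scale. Each sequence is the 250 bases before the annotated start, from RefSeq on GRCm38.p6, 5′ to 3′ on the strand of the gene. Capitals mark every match, on either strand, to 1 of 6 motifs: TATAA (core of the TATA box), CCAAT (the CCAAT box), GGGCGG (the GC box), TTGCGCAA (a palindrome bound by C/EBP factors), CACGTG (an E box) and TGACTCA (AP-1).
Lep, chr6:29059971-29060220, plus strand: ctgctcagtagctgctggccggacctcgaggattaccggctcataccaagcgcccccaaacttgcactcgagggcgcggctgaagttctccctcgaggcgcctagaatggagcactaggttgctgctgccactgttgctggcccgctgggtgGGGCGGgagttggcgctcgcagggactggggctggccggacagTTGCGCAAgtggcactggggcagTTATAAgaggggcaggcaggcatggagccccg
Metrnl, chr11:121702177-121702426, plus strand: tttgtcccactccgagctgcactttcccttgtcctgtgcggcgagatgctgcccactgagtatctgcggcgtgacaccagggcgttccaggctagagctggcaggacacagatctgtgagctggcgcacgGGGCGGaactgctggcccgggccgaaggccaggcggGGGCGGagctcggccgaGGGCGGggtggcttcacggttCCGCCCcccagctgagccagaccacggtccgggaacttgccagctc
Adipoq, chr16:23146286-23146535, plus strand: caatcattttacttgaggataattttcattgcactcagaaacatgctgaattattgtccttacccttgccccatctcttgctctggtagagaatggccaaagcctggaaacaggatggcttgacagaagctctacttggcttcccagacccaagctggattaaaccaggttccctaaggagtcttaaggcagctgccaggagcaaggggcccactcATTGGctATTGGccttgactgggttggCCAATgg
The Lep window held TTGCGCAA between 55 and 48 bases before the start. It held TATAA on the strand of the gene between 31 and 27 bases before the start, where a match on the opposite strand overlaps it, and a GC box farther upstream. The C/EBP palindrome occurred in 54 of 32851 windows of this length in the RefSeq table (0.164%), and TATAA in 22.8%. The Metrnl window had no TATAA and held GGGCGG 4 times, a motif found in 32.7% of windows. The Adipoq window held CCAAT 3 times, 1 time on the strand of the gene and 2 times on the other, against 33.8% of windows with at least 1. Bases G and C made up 65.6% of the Lep window, 68.4% of the Metrnl window and 48.8% of the Adipoq window. A match describes letters and is not a measured site. Such windows were found for 9 of the 10 genes, all but Rarres2. CACGTG, found in 6.02% of all windows, and TGACTCA, found in 4.46%, occurred in 0 of these 9. Both are rare enough that their absence from so few windows says little.

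Lep, which encodes leptin, had a log2 signal of 13.07 in the high fat pool and 11.99 in the normal diet pool. The signal was 2.11-fold higher in the high fat pool, a difference of 1.08 on its only probe set. The high fat value ranked 143 among 45037 probe sets and the normal diet value 594, so the Lep probe set was among the brightest 1.32% in the normal diet pool as well. Of 225 other genes within 0.5 of the mean level of Lep, 4 differed by at least as much in either direction. These were Ctss, Lgals3, Plin2 and Trp53inp2, named after their values were seen.

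Adipoq, which encodes adiponectin, had 14.12 in the high fat pool and 14.21 in the normal diet pool, a difference of -0.09. It ranked 4 on both arrays, and its values lay 0.091 and 0.076 below the highest value of the high fat and the normal diet array. Only 5 genes had a mean level between 14 and 15, and the largest difference among them in either direction was 0.13. After quantile normalization of both arrays the difference was 0. At this end of the scale a difference of this size can be read neither as a change nor as its absence.

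Retn, which encodes resistin, had 13.60 in the high fat pool and 13.89 in the normal diet pool. The signal was 1.22-fold lower in the high fat pool, a difference of -0.28. It also lay near the top, at rank 40 on the high fat and rank 16 in the normal diet pool. Of 47 other genes within 0.5 of its mean level, 12 (25.5%) differed by at least as much, so its difference was within the usual spread at that brightness.

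Retnla, which encodes the resistin-like molecule alpha secreted by alternatively activated macrophages and by stromal cells of fat, had 12.95 in the high fat pool and 12.90 in the normal diet pool. The difference was 0.055, smaller than the SD between probe sets at that level, and 111 of 147 other genes of like level (75.5%) differed by at least as much. Alternatively activated macrophage markers on the same arrays went both ways, 5 higher and 3 lower among 8 above the floor, with a median of 0.25. Clec10a (0.68), Folr2 (0.55) and Mgl2 (0.50) were higher, and Arg1 (-1.83), an enzyme that liver also makes, was lower. The 5 measured eosinophil markers, from cells whose cytokines drive Retnla in mice, were below background on both arrays.

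**Figure D1:**
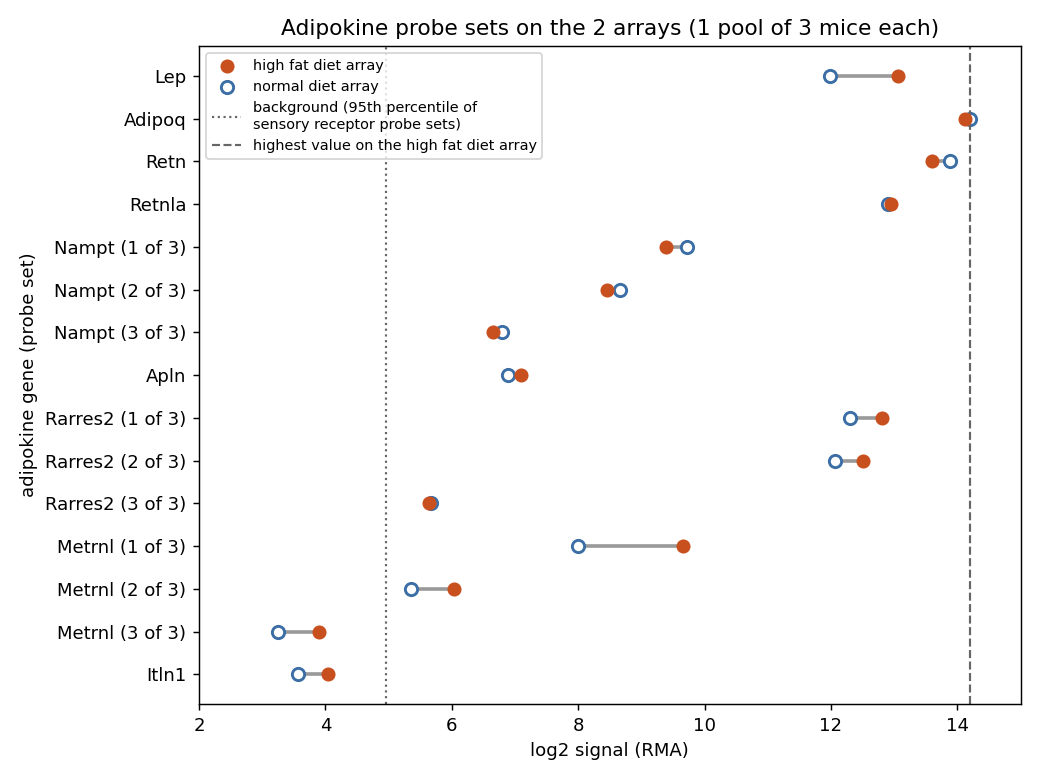
Log2 signal (x axis) of the 15 adipokine probe sets (y axis, several per gene where the array has them) on the high fat diet array (filled) and the normal diet array (open), 1 pool of 3 mice each. The wide gaps are those of Lep (13.07 against 11.99) and of the brightest Metrnl probe set (9.661 against 7.997), while Adipoq lies at the dashed line of the highest high fat diet value.

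Metrnl, which encodes meteorin-like, a hormone of muscle and fat linked to thermogenesis and made by macrophages as well, showed the largest difference of the 9 genes on its brightest probe set, though not with the median over probe sets, where it lay below Lep. Its brightest probe set had 9.661 in the high fat pool and 7.997 in the normal diet pool, 3.17-fold higher with a difference of 1.66. Only 126 of 11778 genes differed upward by as much or more, Metrnl included. A dimmer probe set had 6.04 in the high fat pool and 5.36 in the normal diet pool, a difference of 0.68. The dimmest had 3.89 in the high fat pool and 3.25 in the normal diet pool, both below background, so no ratio is given for it. All 3 probe sets were thus higher in the high fat pool, but only the brightest was past 2-fold, and with the median over probe sets Metrnl had 0.68. Macrophage markers were higher beside it, 12 of 12 above the floor and 8 of them past 2-fold, against 3.28% of all genes. Their summed linear signal was 34468 in the high fat pool and 17349 in the normal diet pool, a ratio of 1.99, and none was below background.

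Metrn, the gene of meteorin and the closest relative of Metrnl on the arrays, had 8.06 in the high fat pool and 7.25 in the normal diet pool, a difference of 0.81. Its dimmer probe set was below background on both arrays. Retnlb, a resistin relative of the gut, was below background on both arrays.

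Rarres2 encodes chemerin, an attractant for macrophages and dendritic cells that fat and liver secrete. Its brightest probe set had 12.81 in the high fat pool and 12.31 in the normal diet pool, 1.42-fold higher with a difference of 0.50. A second had 12.51 in the high fat pool and 12.06 in the normal diet pool, 1.37-fold higher with a difference of 0.45. These probe sets differed from each other by less than the SD between probe sets at that level. Both can match several transcripts by their design, and the third probe set, which cannot, had 5.64 in the high fat pool and 5.68 in the normal diet pool, near background, with a difference of -0.038. Of 223 other genes of like level, 34 (15.2%) differed by at least as much as the brightest probe set. Hepatocyte markers were lower in the high fat pool in 11 of 12 cases, opposite in direction to the bright Rarres2 probe sets.

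Nampt encodes the enzyme that makes NAD from nicotinamide, which is also secreted and known as visfatin. Its 3 probe sets had 9.39, 8.46 and 6.64 in the high fat pool, against 9.73, 8.66 and 6.79 in the normal diet pool. All were slightly lower in the high fat pool, by -0.34, -0.20 and -0.14. The brightest corresponds to a 1.27-fold lower signal, and 497 of 1653 other genes of like level (30.1%) differed by at least as much.

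Apln, which encodes apelin, a peptide that acts on vessels and heart and that insulin induces in fat cells, had 7.10 in the high fat pool and 6.88 in the normal diet pool. The difference was 0.22, or 1.16-fold, and 1307 of 2338 other genes of like level (55.9%) differed by as much or more. Itln1 encodes intelectin-1, the mouse counterpart of omentin, a lectin known from gut and, in humans, from visceral fat. It had 4.04 in the high fat pool and 3.56 in the normal diet pool, both below the background of 4.95 and 4.92, so no ratio is given. Of the 6 measured gut markers, Vil1, Cdx1 and Cdx2 were below background on both arrays too, and Fabp2 in the high fat pool only. Lyz1 (0.33) and Lgals4 (-0.68) were above background on both arrays. Lyz1 had 13.77 in the high fat pool and 13.44 in the normal diet pool. Lyz2, a lysozyme gene among the macrophage markers, had 13.19 in the high fat pool and 12.50 in the normal diet pool. Whether the Lyz1 signal came from gut was not tested. Mesothelium markers, whose cells make omentin in humans, were lower in 9 of 9 cases.

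As a group, 8 of the 9 measured genes passed the floor on low values, a mean level of 5.44, and Itln1 did not. Of the 8, 2 were at least 2-fold higher in the high fat pool (Lep and Metrnl) and 0 at least 2-fold lower. Among all 11778 genes above the floor, 3.28% reached 2-fold upward and 3.29% reached it downward. The differences of the 8 ran from -0.34 for Nampt to 1.66 for Metrnl, 5 higher and 3 lower, with a median of 0.14, against a median of 0 over all genes. With so few genes, and with no test, the count describes these arrays. At a limit of 1.5-fold the count was again 2 higher and 0 lower, against 8.2% and 8.52% of all genes.

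The spread of differences over all genes varied with the level on the scale and was smallest above a level of 13. Between levels of 6 and 7, 10.2% of 2180 genes were past 2-fold in either direction and the 5th and 95th percentiles of the difference were -1.07 and 0.94. Between 8 and 9, the band of Metrnl, 5.10% of 2374 genes were past 2-fold, with percentiles of -0.68 and 0.75. Between 12 and 13, the band of Lep, Rarres2 and Retnla, this held for 6 of 231 genes, 6 higher and 0 lower, with percentiles of -0.52 and 0.79. Between 13 and 14, the band of Retn, 0 of 75 genes were past 2-fold and the largest difference in either direction was 0.66. Lep and Metrnl lay above the 95th percentile of their bands, and the other 6 genes lay between the percentiles of theirs. The distance between the percentiles was 1.27 between levels of 11 and 12, 1.31 between 12 and 13, and 0.893 between 13 and 14. In all, 5 of the 9 measured genes had a mean level of 12 or more, and 2 of them, Retn and Adipoq, lay above 13. For these 2 a small difference says less than it would lower on the scale.

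**Figure D2:**
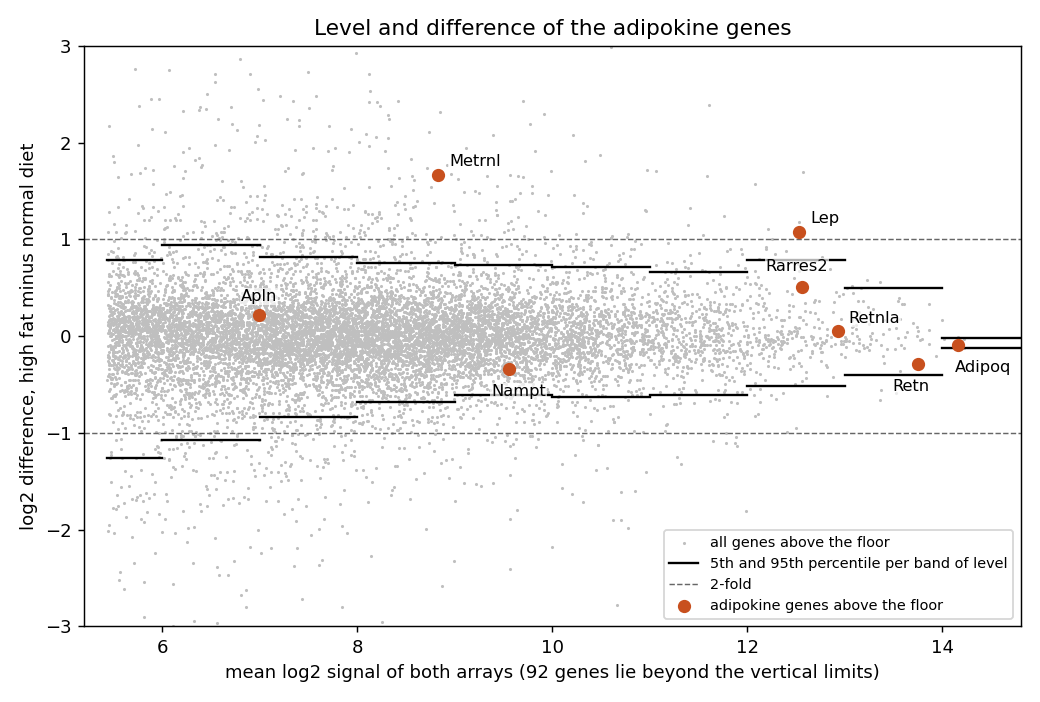
Log2 difference, high fat minus normal diet (y axis), against the mean log2 signal of both arrays (x axis) for all 11778 genes above the floor (grey) and the 8 adipokine genes among them (orange), with the 5th and 95th percentile of each band of level as black lines and 2-fold as dashed lines. Only Lep (1.08) and Metrnl (1.66) lie above the 95th percentile of their band, and the percentiles lie closest to 0 above a level of 13, at the right.

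Most receptors on which adipokines act differed by less than 2-fold. Of 12 genes of receptors and binding proteins, 11 passed the floor, 4 higher and 7 lower in the high fat pool, with a median of -0.11 that became 0.059 with the median over all probe sets of each gene. Of them, 1 was at least 2-fold higher, against 3.28% of all genes, and 0 were at least 2-fold lower, against 3.29%. Lepr, the leptin receptor, had 5.31 in the high fat pool and 5.24 in the normal diet pool on its brightest probe set, under the floor, and its other 3 probe sets were below background on both arrays. The adiponectin receptors differed little on their brightest probe sets. Adipor1 had 10.36 in the high fat pool and 10.46 in the normal diet pool, and Adipor2 had 11.41 in the high fat pool and 11.52 in the normal diet pool. A dimmer probe set of each pointed the other way, at 0.35 for Adipor1 and 0.30 for Adipor2. Cdh13, which encodes T-cadherin, a surface protein that binds adiponectin multimers, had 7.55 in the high fat pool and 8.09 in the normal diet pool, a difference of -0.54. Its other probe sets above the floor differed by -0.18 and -0.42.

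Aplnr, the apelin receptor of vessels, had 8.64 in the high fat pool and 9.49 in the normal diet pool, 1.80-fold lower, but its dimmer probe set differed by 0.033. Endothelial markers were lower beside Aplnr and Cdh13, in 8 of 8 cases on the brightest probe sets, with a median of -0.56. A dimmer probe set of Cdh5 had 0.53. The summed linear signal of the 8 markers was 2793 in the high fat pool and 3973 in the normal diet pool. The chemerin receptors differed in both directions. Cmklr1, which signals in macrophages, differed by -0.24 on its brightest probe set, Gpr1 by 0.34, and Ccrl2, which presents chemerin without signalling, by 0.80, with 6.86 in the high fat pool and 6.06 in the normal diet pool. Cap1, whose protein has been described as a resistin receptor in humans, was the one past 2-fold, with 6.47 in the high fat pool and 5.14 in the normal diet pool and a ratio of 2.50. Its other probe set differed by 1.68, with the normal diet value below background. Kit, a receptor tyrosine kinase described as a receptor of meteorin-like, differed by -0.47. The insulin receptor Insr differed by -0.65 on the 1 probe set above background, and Tlr4, the endotoxin receptor, by 0.21.

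**Figure D3:**
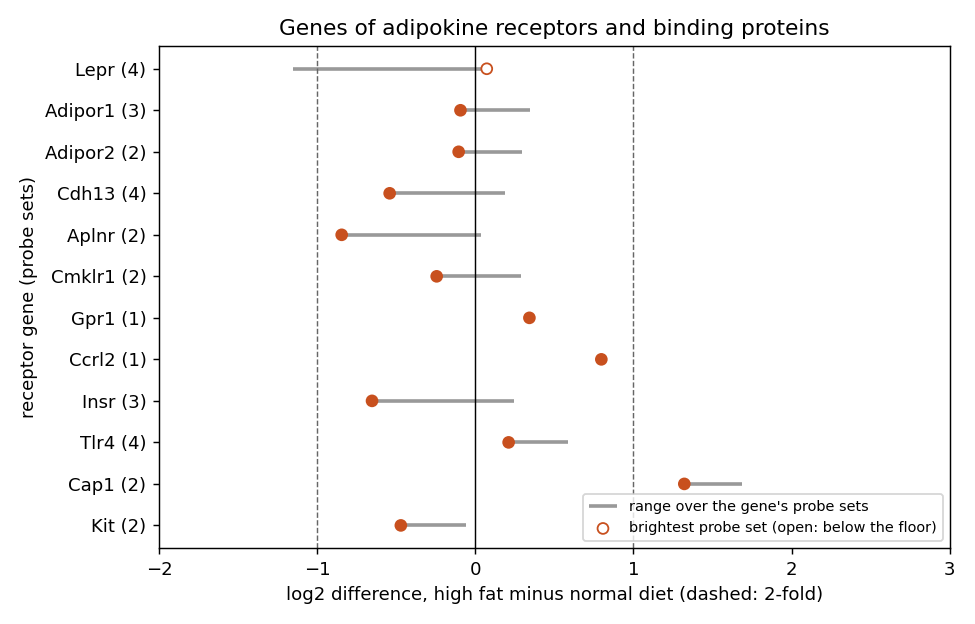
Log2 difference, high fat minus normal diet (x axis), of 12 genes of receptors and binding proteins (y axis, with the number of probe sets), as the brightest probe set (point) and the range over all probe sets of the gene, dim ones included (grey line). Only Cap1 lies beyond the dashed 2-fold line on its brightest probe set, and for Lepr, Adipor1, Adipor2, Cdh13, Aplnr, Cmklr1 and Insr the range crosses or reaches both sides of 0.

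Downstream of leptin, 11 of 12 signalling genes passed the floor, 3 higher and 8 lower with a median of -0.073 (5 higher and 6 lower with the median of each array subtracted), and 0 were past 2-fold in either direction. Among all genes above the floor, 3.28% were past 2-fold upward and 3.29% downward, so 0 in so short a list says little. With the median over all probe sets of each gene the list's median was 0.093. Probe sets of Ptpn11 (0.41), Stat5a (0.28), Stat5b (0.039), Sh2b1 (0.39) and Ptpn2 (0.48) were higher in the high fat pool, although the brightest probe set of each was lower. Ptpn1, the phosphatase that switches off the leptin receptor's kinase, had the highest difference, 0.36. Jak2, that kinase, had -0.37, Ptpn11 -0.26 and Pias3 -0.23. Socs3, the feedback inhibitor that leptin induces, differed by -0.02, with 7.36 in the high fat pool and 7.38 in the normal diet pool. Another of its probe sets differed by -0.48. Stat3 had 0.020 on its brightest probe set and -1.03 on another. Lep itself had 1.08 on the same arrays.

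Genes of adiponectin receptor signalling, which runs through the adaptor Appl1, AMP-activated kinase and PPAR alpha, were lower in the high fat pool in 11 of 11 cases (9 of 11 with the median of each array subtracted, where Prkab2 and Prkag1 were higher), with a median of -0.23 and 0 past 2-fold. Over all genes above the floor 5873 were higher and 5805 lower, with 3.28% past 2-fold upward and 3.29% downward. Ppargc1a, the coactivator of mitochondrial genes, had 5.14 in the high fat pool and 6.10 in the normal diet pool, a difference of -0.95. The catalytic subunits of the kinase followed, with Prkaa1 at -0.90 and Prkaa2 at -0.80, and Prkab2, a regulatory subunit, lay nearest to 0 at -0.026. These counts rest on the brightest probe sets, and for Appl1, Prkab1, Prkab2, Stk11, Adipor1 and Adipor2 a dimmer probe set was higher in the high fat pool. Skeletal muscle, which is rich in such transcripts, had markers lower in 7 of 7 cases beside them on the brightest probe sets (a dimmer one of Ckm had 0.033 and of Mb 0.43), and the 12 hepatocyte markers had a median of -5.61.

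Adiponectin is assembled into multimers in the endoplasmic reticulum, where Ero1a, Erp44 and Gstk1 (also called DsbA-L) control its release. Of 12 such assembly and folding genes, 8 were higher and 4 lower in the high fat pool, with a median of 0.20. Among them 0 were past 2-fold, against 3.28% of all genes upward and 3.29% downward. Pdia6 (0.36), Calr (0.34) and Ero1a (0.33) were highest, and all 3 probe sets of Ero1a were higher. Erp44 differed by 0.07. Gstk1 was the lowest, with 10.04 in the high fat pool and 10.33 in the normal diet pool, a difference of -0.29.

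Of the transcription factors and cofactors known to act on adipokine genes, 15 of 16 were measured, 5 higher and 10 lower in the high fat pool. The median was -0.22 and the mean 0.039, so the signs differ. Atf3, a stress factor that represses Adipoq, was 6.55-fold higher, the 1 gene of the list past 2-fold, against 3.28% of all genes. Pparg, which drives Adipoq in fat cells, had -0.47, and Cebpa, which drives Adipoq and Lep there, had -0.46. Cebpb was higher on both of its probe sets, by 0.72 and 1.10. Hif1a, an oxygen-regulated transcription factor linked to leptin transcription, had 11.47 in the high fat pool and 10.88 in the normal diet pool. All 4 of its probe sets were higher, but the one with 0.52 was below background on both arrays. Those above background differed by 0.59, 0.57 and 0.96. Sirt1 had -0.48 and Ppargc1a -0.95. Cebpb and Hif1a are expressed in macrophages as well, whose markers had a median of 1.24.

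Among the C1q and TNF related proteins, the structural family of adiponectin, 9 of 13 measured genes passed the floor, 5 higher and 4 lower, with a median of 0.34 that became -0.014 with no floor. Under both other scalings, quantile normalization and subtraction of array medians, 6 were higher and 3 lower, C1qtnf2 having changed sides. The higher end was held by C1qb (1.04), C1qc (0.75) and C1qa (0.66), complement genes of macrophages, and the lowest was C1qtnf7 (-0.37). Of the secreted paralogues proper, C1qtnf1 had 9.11 in the high fat pool and 8.53 in the normal diet pool, with differences of 0.58 and 0.53 on its probe sets. C1qtnf12, also called adipolin, had 10.87 in the high fat pool and 11.08 in the normal diet pool, and both were named after their values were seen. Unlike Adipoq, these genes lay well below the top of the scale.

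Around Nampt, 15 of 17 measured genes of NAD synthesis and use passed the floor, 6 higher and 9 lower with a median of -0.034. Among them 0 were past 2-fold, against 3.28% of all genes upward and 3.29% downward. With the median of each array subtracted, 8 were higher and 7 lower and the median was 0.038. Qprt (-0.69), which makes NAD from tryptophan, Nmnat3 (-0.58) and the mitochondrial deacetylase Sirt3 (-0.52) were lowest. Nmnat1 had 0.73 on its brighter probe set and -0.17 on the other.

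In the alternative complement pathway, which adipsin starts, 7 genes passed the floor, 5 higher and 2 lower in the high fat pool with a median of 0.66. The receptors C3ar1 (1.74) and C5ar1 (1.34), which macrophages carry, were past 2-fold, against 3.28% of all genes. Cfb, the substrate of adipsin, had 11.21 in the high fat pool and 10.38 in the normal diet pool, a difference of 0.82. Cfi (-1.49), an inhibitor made mainly in liver, was lower. Of the enzymes that cut apelin and chemerin, 8 passed the floor, 3 higher and 5 lower with a median of -0.16. Mme, which encodes neprilysin, had 0.74, and its second probe set 0.91. Plg, which encodes plasminogen, a liver product that can activate chemerin, was 11.5-fold lower, as hepatocyte markers were, while Pcsk6 (-0.41) and Cma1 (-0.26) differed less.

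Other factors secreted by fat differed from -2.38 to 3.85. Of 27 above the floor, 15 were higher and 12 lower with a median of 0.30, 7 of them past 2-fold upward, against 3.28% of all genes, and 2 past 2-fold downward, against 3.29%. Saa3 (3.85), Gpnmb (3.40) and Il1rn (2.62), all made by macrophages too, were the highest. Ccl2 (2.43), the Wnt antagonist Sfrp5 (2.19), Ccn5 (1.36) and Pltp (1.01), named after their values were seen, were the others past 2-fold. Azgp1, a lipid-mobilising factor that liver also makes, was lowest, with 5.37 in the high fat pool and 7.75 in the normal diet pool, and Agt (-1.60), named in the same way, was the other one past 2-fold. Rbp4, an adipokine of insulin resistance that liver also secretes, had 12.68 in the high fat pool and 12.84 in the normal diet pool, a difference of -0.16, and was likewise named after its value was seen.

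**Figure D4:**
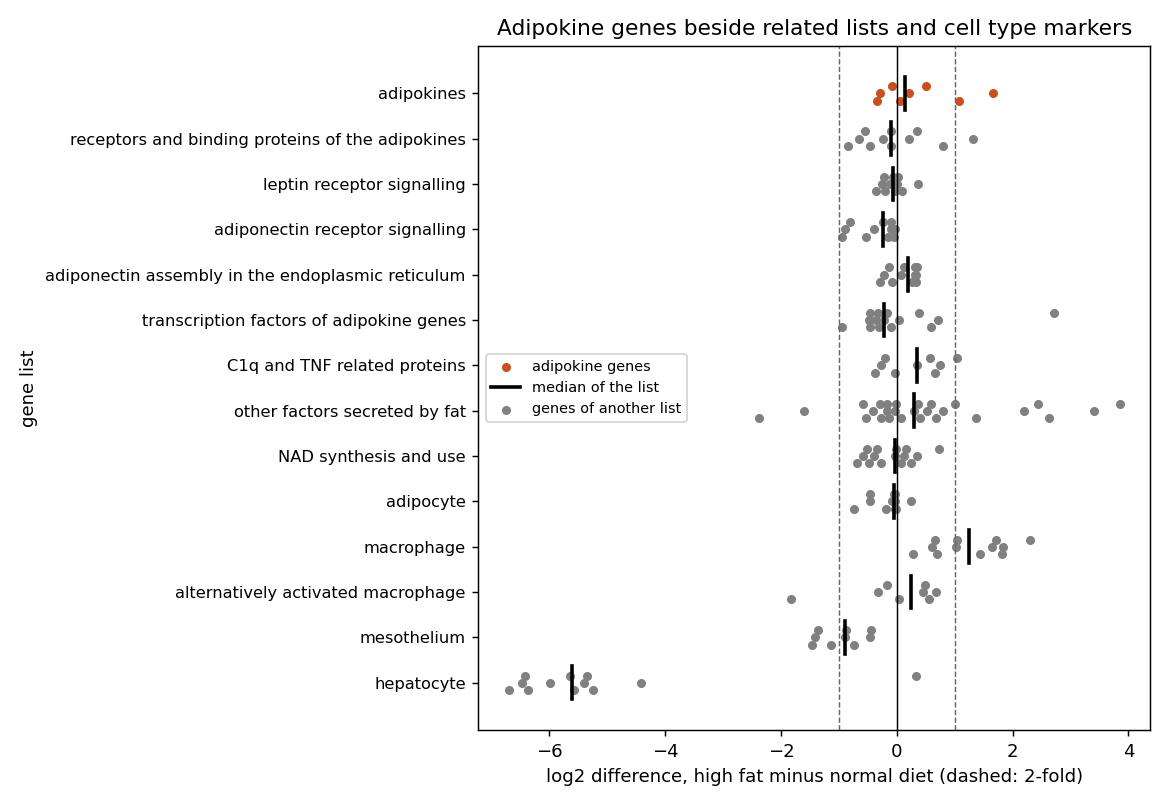
Log2 difference, high fat minus normal diet (x axis), of every gene above the floor in the adipokine list (orange) and in related lists and cell type markers (grey), with the median of each list as a black bar and 2-fold as dashed lines. The adipokine median is 0.14, the macrophage median 1.24 and the hepatocyte median -5.61, and the 11 adiponectin receptor signalling genes lie left of 0, 2 of which crossed it with the median of each array subtracted.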

How the data were processed

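Adipose tissue RNA pooled from 3 mice per diet was measured on 1 array per diet. The authors deposited log2 signals of 45101 probe sets per array, made with RMA per the submitters' processing notes. The sources used here give no RMA version, and the scale was taken to be log2 from the range of the values. RMA makes the arrays' distributions nearly equal (sorted columns differed by at most 0.14). Symbols came from GEO's platform annotation: 34958 had 1 symbol, 932 several and 9160 other than 64 controls none. The probe set with the highest mean stood for its gene, and the floor was the median mean level, 5.44. Background was the 95th percentile of 83 sensory receptor probe sets, 4.95 in the high fat pool and 4.92 in the normal diet pool. No test was possible. Calculations used Python 3.11.15 and pandas 2.3.3 and were tested on simulated data. The members, the gene lists and the alternatives were chosen with earlier results of these data known. Named genes were all members and receptors, partners and regulators of a member, and of each other list the 3 farthest in the direction of its median and the 1 farthest the other way. Alternatives changed the probe set for a gene, the floor, the normalization, the fold and the treatment of dim values.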

Additional observations from a re-analysis of the deposited data

How the results depend on the processing

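Of the 9 adipokine genes, Lep kept a difference between 1.04 and 1.15 under the alternatives that gave it a value. With 1 probe set and a bright signal, only a change of normalization could move Lep. The count of adipokine genes at least 2-fold higher was 1, not 2, with the median over all probe sets of a gene and also when probe sets able to match several transcripts were left out, because Metrnl then had 0.68. The count at least 2-fold lower was 0 under each alternative run. The median of the adipokine genes ran from 0.0088 when they were left out to 0.22 with no floor. Rarres2 had -0.038 without such probe sets, Adipoq had 0 after quantile normalization, and Itln1, below background on both arrays, had 0.029 with dim values raised to background. With the floor at the 75th percentile, which keeps fewer genes, 190 genes reached 2-fold upward and 132 downward. Of 48 recomputed differences of single adipokine genes, 43 moved by less than the SD between probe sets of a gene. Many of the 48 could not move, so this count is no measure of stability. For a gene with 1 probe set the choice of probe set changes nothing, and raising dim values leaves bright genes as they were. Subtracting array medians shifts every gene by the same amount. No paired analysis was possible because each diet has 1 array. The adipocyte median, -0.047, was 0.025 with the median of each array subtracted. Signs also turned for the medians of receptors (0.059) and leptin signalling (0.093) with the median over all probe sets, of C1q and TNF related proteins (-0.014) with no floor, and of the NAD genes (0.030) and the intestine markers (0.33) with the floor at the 75th percentile. The intestine value at that floor is that of Lyz1 alone. Precision is limited by the number of arrays, and for Adipoq and Retn by the top of the scale.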
